A study of Homo sapiens with 6 samples.

Results

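The 33 genes described here encode the transporters and enzymes that carry glucose through glycolysis to lactate or into the mitochondrion, together with enzymes of the pentose phosphate pathway. They were taken by gene symbol from a list of pathway members, and all 33 were found among the 58735 genes of the deposited tables. The RNA came from MOLT-3, an established line grown from a human T-cell acute lymphoblastic leukaemia (T-ALL), with 3 libraries of DMSO-treated cells, DMSO being the solvent control, and 3 of cells treated with compound E. Compound E inhibits gamma-secretase, the protease that releases the active intracellular part of NOTCH receptors. The study looked for genes under NOTCH1 control that could bear on the chemosensitivity of such leukaemia cells. The sources used here give neither dose nor treatment time. Nothing in the labels says that replicates were separate cultures, so each p-value rests on the spread among libraries, which may be technical. All libraries come from a single cell line, and in such bulk RNA fewer cells of a kind and less RNA per cell cannot be told apart.

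Glycolysis splits glucose into pyruvate and yields ATP without oxygen, and dividing lymphoid cells are known for sending much of that pyruvate to lactate. The pentose phosphate pathway leaves glycolysis at glucose-6-phosphate. Its oxidative branch makes NADPH, and its non-oxidative branch exchanges carbons between ribose-5-phosphate and glycolytic sugars through transketolase and transaldolase. Several steps are served by isozymes from separate genes, which differ in tissue and in regulation.

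Libraries held 17316138 to 19845114 counts, and the NOTCH targets HES1, HES4, DTX1 and NOTCH3 all fell, with log2 fold changes from -4.90 to -2.16. T-lineage markers were present, at 68497 to 77733 summed counts per library for 10 genes, of which 3 rose and 6 fell (90% called, against 38.3% of all tested genes). B-lineage markers summed to 247 to 297 counts, mostly CD79A, with MS4A1, PAX5 and CD22 at 0. Myeloid markers summed to 42 to 59 counts, mostly ITGAM, with MPO and FCGR3A at 0, and erythroid markers to 0 to 4. Stromal, endothelial and epithelial markers summed to 1185 to 1334 counts, mostly PECAM1, which rose (log2 fold change 0.16, edgeR adjusted p = 0.00368), with COL1A1 at 156 to 218 counts and COL1A2 at 0. The part of these markers in the members' results was not tested. CPM below are counts scaled to the library total after TMM, a correction for library composition, and FPKM are the authors' deposited values, which also divide by gene length. A positive log2 fold change means a higher level with compound E. The test was edgeR's quasi-likelihood test over 16926 genes, and called means that its Benjamini-Hochberg adjusted p was below 0.05.

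All 33 members passed the filter on low counts, and their lowest count in any library was 59. With compound E 11 members fell and 5 rose, and 17 were not called. The share called, 16 of 33 or 48.5%, compares with 38.3% of all tested genes. In the downward direction it was 33.3% of members against 19.4% of all tested genes, and in the upward direction 15.2% against 18.9%. Most of the changes were small. Only 5 members were called at 1.2-fold or more, 15.2% of the list against 21.0% of all tested genes, and 1 was called at 1.5-fold or more, against 8.68%. The members' median log2 fold change was -0.04, beside a median of -0.0034 over all tested genes. In absolute size the median was 0.099 for members and 0.173 for all tested genes. These shares were not matched for abundance. With a filter of 5 CPM in 3 libraries, which PFKFB4 did not pass, 5536 of 11127 tested genes were called. Under that filter 12 members fell and 4 rose, while 48.7% of the 5536 called genes were higher. The higher share of members called in either direction is therefore not read as a trait of the list. Whether the share that fell exceeds that of equally abundant genes was not tested.

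Together the members took 0.775%, 0.781% and 0.777% of all counts in DMSO replicates 1 to 3 and 0.745%, 0.749% and 0.742% in compound E replicates 1 to 3. The summed share was thus lower in each compound E library than in each DMSO library. Abundant members weigh most in this share, so it does not describe the members one by one. Summed FPKM of the members was 1878 ± 10.1 in DMSO and 1847 ± 13.0 in compound E (SD, n = 3). No test was made on these sums, since the members were chosen with earlier results of these data known.

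**Figure D1:**
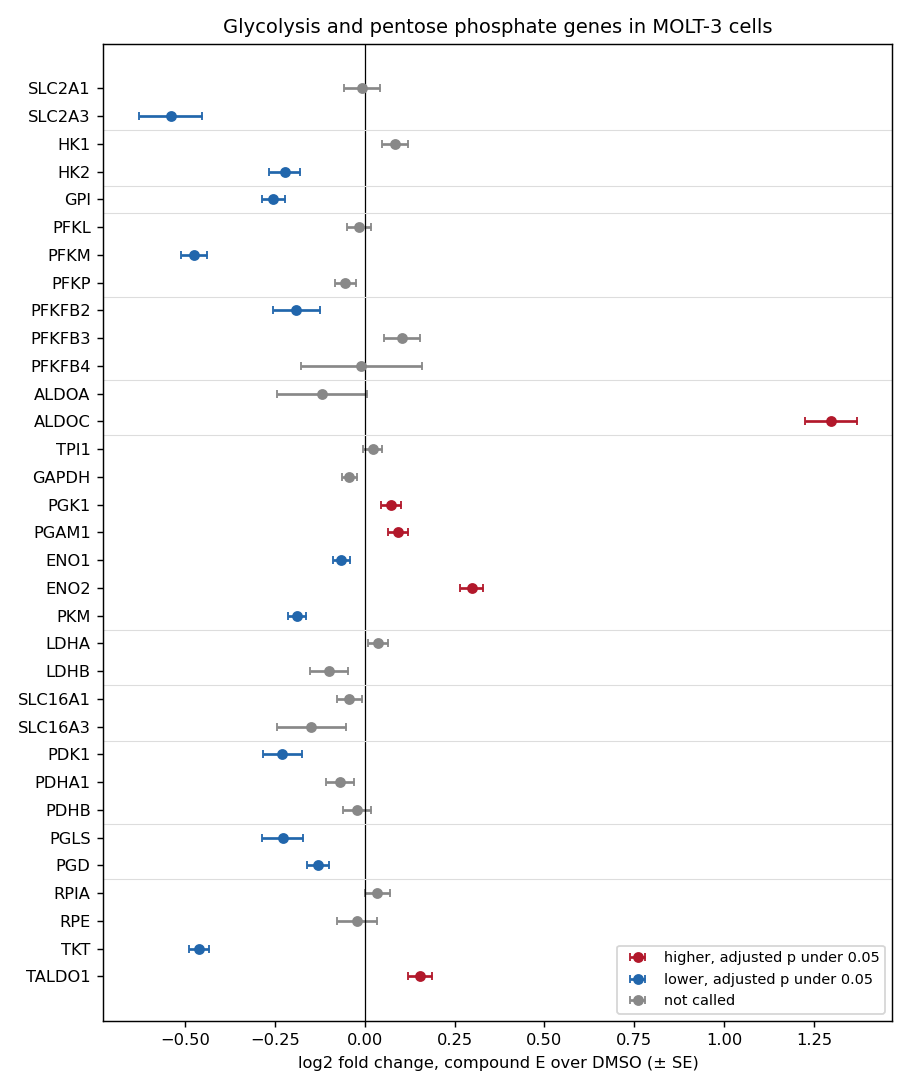
Log2 fold change of compound E over DMSO (x axis) with its standard error for each of the 33 members (y axis, in pathway order, grey lines between steps), red where called higher, blue where called lower and grey where not called. ALDOC stands apart at 1.30, the falls of SLC2A3, PFKM and TKT lie between -0.54 and -0.46, and the others lie within 0.30 of 0.

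Levels per gene length spanned a wide range. In DMSO, GAPDH, the dehydrogenase of the middle of glycolysis, was at 773 ± 12.7 FPKM (SD, n = 3), and over all 6 libraries it ranked 24th of 16926 tested genes. Behind it came the enolase ENO1 at 175 ± 2.58 FPKM, the triose phosphate isomerase TPI1 at 132 ± 1.40 FPKM and the phosphoglycerate mutase PGAM1 at 102 ± 0.336 FPKM. LDHA (77.4 ± 1.80 FPKM) and PKM (75.3 ± 0.945 FPKM) lay within their spread of each other in DMSO, since the lowest LDHA library was below the highest PKM library. Control enzymes and transporters were lower, and PFKFB4, at 0.676 ± 0.0947 FPKM in DMSO, was the lowest member. With compound E ALDOC moved from 4.09 ± 0.267 to 10.1 ± 0.248 FPKM, which took it past PFKFB3, SLC2A1 and HK2.

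**Figure D2:**
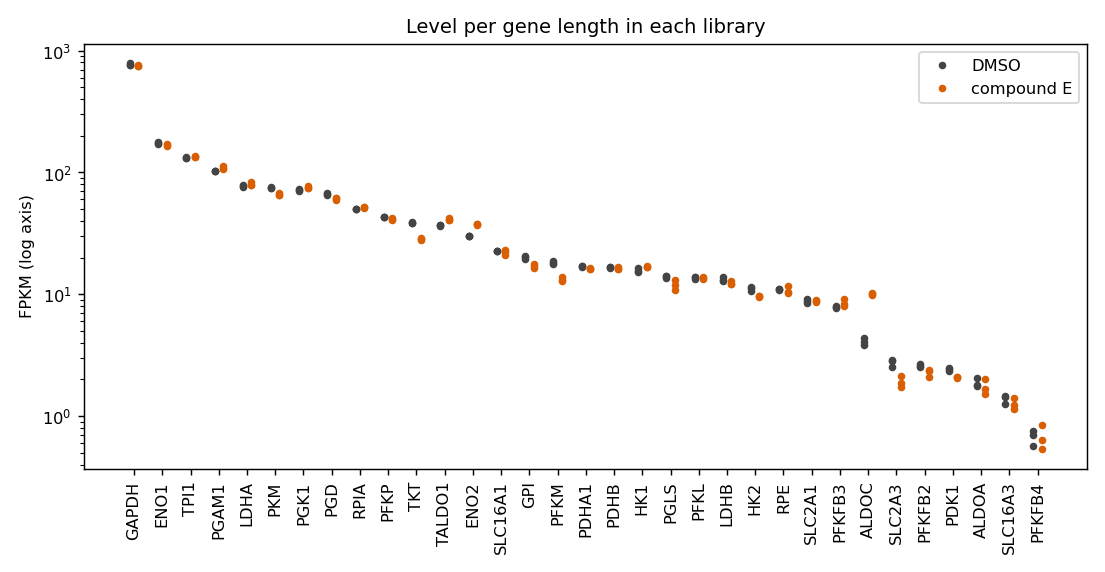
Deposited FPKM of each member (x axis, ordered by the DMSO mean) in each of the 3 DMSO and 3 compound E libraries (points, y axis on a log scale). Values run from GAPDH above 700 to PFKFB4 below 1, and the ALDOC points of compound E sit clear of those of DMSO.

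Glucose enters cells through GLUT transporters. SLC2A1, which encodes the widely expressed GLUT1, was at 42.0, 40.8 and 43.3 CPM in DMSO and at 42.7, 40.7 and 42.0 CPM in compound E, so the groups overlapped. Its log2 fold change was -0.01 ± 0.0505 (SE). SLC2A3, which encodes the high-affinity transporter GLUT3, was at 17.98, 17.7 and 15.7 CPM in DMSO and at 11.7, 10.7 and 13.1 CPM in compound E. Every compound E library was below every DMSO library, and SLC2A3 fell 1.45-fold (log2 fold change -0.54 ± 0.0875, edgeR adjusted p = 3.26e-06). In FPKM SLC2A3 was the lesser of these transporters, with 23.8% ± 1.78 of their sum in DMSO and 17.8% ± 1.31 in compound E (SD, n = 3).

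Hexokinases trap glucose in the cell as glucose-6-phosphate. HK2, the isozyme typical of growing and tumour cells, was at 65.2, 69.4 and 70.4 CPM in DMSO and at 57.7, 59.0 and 58.9 CPM in compound E, and it fell 1.17-fold (edgeR adjusted p = 6.40e-05). HK1, the housekeeping isozyme, was at 99.1, 97.6 and 104 CPM in DMSO against 106, 107 and 106 CPM in compound E. The HK1 groups did not overlap, but the gene was not called (log2 fold change 0.08 ± 0.036, edgeR adjusted p = 0.0593; adjusted p = 0.033 without DMSO replicate 3). HK1 made up 58.6% ± 0.948 of the summed FPKM of the pair in DMSO and 63.6% ± 0.244 in compound E, higher in each compound E library. GPI, the isomerase of the next step, was at 211, 220.01 and 222 CPM in DMSO and at 175, 190.2 and 182 CPM in compound E. Its groups were apart, and GPI fell 1.19-fold (edgeR adjusted p = 2.11e-08).

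Phosphofructokinase is the main control point of glycolysis, and its subunits come from separate genes named for muscle, liver and platelet. PFKM, the muscle-type subunit, was at 134, 139 and 132 CPM in DMSO and at 94.7, 95.5 and 102 CPM in compound E. It fell 1.39-fold with no overlap (log2 fold change -0.47 ± 0.0362, edgeR adjusted p = 6.10e-14). The other subunits were not called, with log2 fold changes of -0.05 ± 0.0291 for PFKP and -0.01 ± 0.0335 for PFKL. PFKP was the most abundant subunit gene per length, at 43.0 ± 0.134 FPKM in DMSO and 41.6 ± 0.553 FPKM in compound E. Its values of 209.7, 209.3 and 210.5 CPM in DMSO and 204, 199 and 203 CPM in compound E did not overlap. Of the 3 subunits' summed FPKM, PFKM gave 24.4% ± 0.570 in DMSO and 19.3% ± 0.644 in compound E. An overlap touches this gene, since 8.58% of PFKM's exonic bases lie in exons of SENP1 on the opposite strand, and the sources used here do not say whether counting used strand.

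PFKFB enzymes set the level of fructose-2,6-bisphosphate, an activator of phosphofructokinase. PFKFB3, the isoform with the strongest kinase activity, led in FPKM, at 49.8, 48.5 and 47.6 CPM in DMSO and 51.5, 49.4 and 55.9 CPM in compound E. The groups overlapped and PFKFB3 was not called (edgeR adjusted p = 0.0979; 0.029 without compound E replicate 2). PFKFB2 fell 1.14-fold, from 26.5 ± 0.815 to 23.3 ± 1.75 CPM (edgeR adjusted p = 0.0191). That call was lost without DMSO replicate 1 (adjusted p = 0.0918) or compound E replicate 2 (0.162), with DESeq2 (0.139) and with limma on FPKM (0.143 to 0.273). Exons of YOD1 on the opposite strand hold 3.09% of PFKFB2's exonic bases. YOD1 had 4476 counts over all libraries, against 2782 for PFKFB2, so with strand use not given the level of PFKFB2 is uncertain. PFKFB4 was near 4 CPM in both groups, 4.16 ± 0.589 and 4.12 ± 0.992, and was not called.

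Aldolase cleaves fructose-1,6-bisphosphate, and ALDOC, the isozyme named for brain, gave the largest change of all members. It was at 12.8, 11.3 and 12.1 CPM in DMSO and at 28.9, 29.8 and 30.3 CPM in compound E. Each compound E library held more than 2-fold the CPM of each DMSO library, and ALDOC rose 2.46-fold (log2 fold change 1.30 ± 0.0722, edgeR adjusted p = 4.80e-18). By absolute log2 fold change it stood at percentile 97.8 of all tested genes, where the other members lay at percentile 87.2 or lower. ALDOA, the isozyme of muscle and most other tissues, was at 7.05, 8.12 and 6.99 CPM in DMSO and 7.99, 6.53 and 5.95 CPM in compound E, with overlapping groups and no call (log2 fold change -0.12 ± 0.125).

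The level of ALDOA in these tables is uncertain. In GENCODE 29, whose genes match all 58735 rows of the tables, 1657 of its 3916 exonic bases (42.3%) also belong to exons of AC093512.2 on the same strand, and 53.5% belong to another gene on either strand. AC093512.2 itself had 274 counts over all libraries, against 794 for ALDOA. The sources used here do not say how reads in shared exons were counted, so no share of the aldolases is given. For ALDOC 10.1% of exonic bases are shared, all with an antisense gene that had 0 counts. With the counting of shared reads not given, these 0 counts do not show that no reads were shared. AC005726.1 overlaps the span of ALDOC on the same strand but shares none of its exonic bases. It had 973 counts over all libraries, against 2317 for ALDOC.

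**Figure D3:**
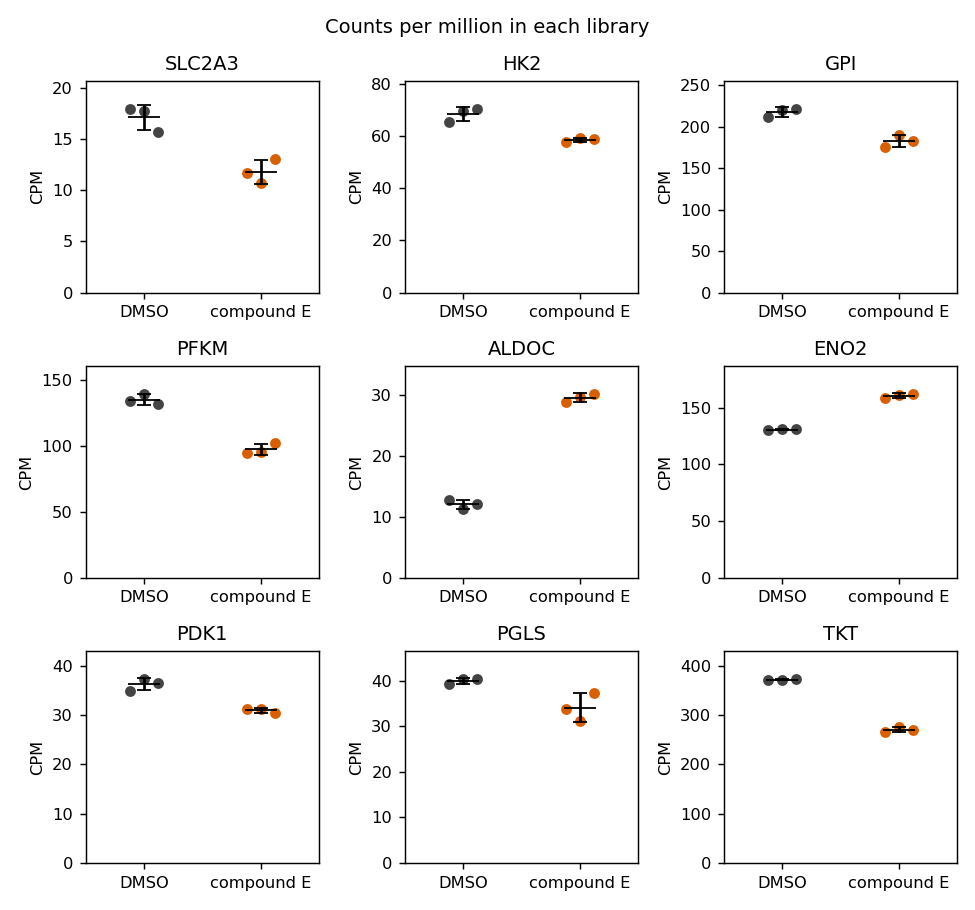
CPM of the 9 members called with a log2 fold change of at least 0.2 in size, in each library (points), with the group mean (horizontal bar) and SD (error bar, n = 3), each y axis starting at 0. In all 9 panels the groups do not overlap, and ALDOC and ENO2 are the panels in which compound E is higher.

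In the lower part of glycolysis, where each glucose has become triose phosphates, 3 of 7 members rose, 2 fell and 2 were not called, GAPDH and TPI1. GAPDH was at 2296, 2372 and 2309.8 CPM in DMSO and at 2254, 2272 and 2248 CPM in compound E. Its groups did not overlap, yet it was not called, at a log2 fold change of -0.04 ± 0.0216 (edgeR adjusted p = 0.119). It was called lower under upper-quartile scaling (adjusted p = 0.0261), a stricter filter (0.0392) or limma-voom (0.0114). TPI1 was not called either, at 0.02 ± 0.0264. Exons of the antisense gene AC006064.4, which had 0 counts, hold 14.2% of GAPDH's exonic bases.

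PGK1, the kinase that makes the first ATP of the pathway, rose 1.05-fold from 399 ± 8.66 to 419.6 ± 5.95 CPM (edgeR adjusted p = 0.0259). PGAM1 rose 1.07-fold from 265 ± 1.23 to 283 ± 6.01 CPM (edgeR adjusted p = 0.0072). The call of PGK1 was lost in 7 of the 17 alternative settings run. Among these were leaving out DMSO replicate 2 (edgeR adjusted p = 0.153), DMSO replicate 3 (0.0709) or compound E replicate 2 (0.0801). The call of PGAM1 was kept in all 17.

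The enolases moved in opposite directions. ENO2, the isozyme named for neurons, was at 130.4, 130.9 and 130.9 CPM in DMSO and at 158, 161 and 162 CPM in compound E, and it rose 1.23-fold (log2 fold change 0.30 ± 0.0315, edgeR adjusted p = 3.95e-10). ENO1, the isozyme of most tissues, was at 941, 916 and 933 CPM in DMSO and at 881, 885 and 902 CPM in compound E, a fall of 1.05-fold that passed the test (edgeR adjusted p = 0.0272). The ENO1 call was lost in 9 of 17 alternative settings. Among these were leaving out DMSO replicate 1 or 3 or compound E replicate 1 or 2 (edgeR adjusted p = 0.0661 to 0.131). ENO2 made up 14.8% ± 0.190 of the summed FPKM of the pair in DMSO and 18.2% ± 0.106 in compound E, and every compound E library was above every DMSO library. Both changes left ENO1 the main enolase.

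PKM encodes pyruvate kinase, the last step to pyruvate. Its values were 659.8, 648 and 647 CPM in DMSO and 564, 565 and 586 CPM in compound E. The groups were apart, and PKM fell 1.14-fold (edgeR adjusted p = 6.57e-08). Counts are sums over the gene's exons, so they do not separate its M1 and M2 splice forms.

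Lactate dehydrogenase turns pyruvate into lactate, and monocarboxylate transporters export it. None of the 4 members of this step was called. LDHA, the muscle-type subunit, was at 474, 498 and 484 CPM in DMSO and 489, 518 and 488 CPM in compound E, with overlapping groups and a log2 fold change of 0.04 ± 0.0274. LDHB, the heart-type subunit, was at 39.7 ± 1.62 and 37.1 ± 1.43 CPM, and 33.4% of its exonic bases are shared with AC010197.2 on the same strand, which leaves its level uncertain. SLC16A1, the transporter MCT1, was at 122, 120 and 122 CPM in DMSO and 113, 122 and 118 CPM in compound E. SLC16A3, the transporter MCT4, was at 12.6 ± 1.06 and 11.4 ± 1.19 CPM. Of SLC16A3's exonic bases 5.36% lie in exons of CSNK1D on the opposite strand. CSNK1D had 20972 counts over all libraries, against 1343 for SLC16A3, so with strand use not given the level of SLC16A3 is uncertain. In FPKM, SLC16A1 made up 94.2% ± 0.484 of the sum of these transporters in DMSO and 94.6% ± 0.477 in compound E, and the groups overlapped.

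**Figure D4:**
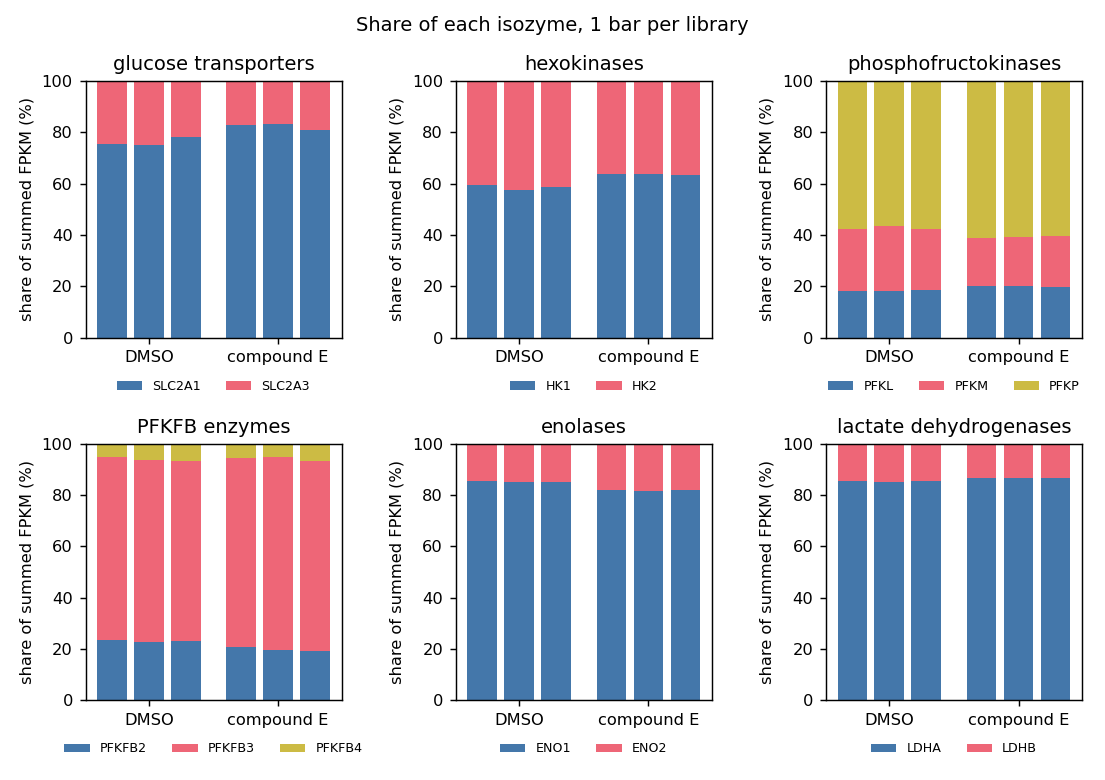
Share of each isozyme in the summed FPKM of the listed members of its family (y axis, percent), 1 stacked bar per library, DMSO on the left and compound E on the right of each panel. The shares of SLC2A3, HK2, PFKM, PFKFB2, ENO1 and LDHB are smaller in each compound E library. Those of SLC2A1, HK1, PFKL, PFKP, PFKFB3, ENO2 and LDHA are larger, and PFKFB4 overlaps. The LDHA and PFKFB3 shares rest on LDHB and PFKFB2, whose levels are uncertain.

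Pyruvate enters the mitochondrial tricarboxylic acid cycle through the pyruvate dehydrogenase complex, which pyruvate dehydrogenase kinases switch off. PDK1, one of these kinases, was at 35.0, 37.3 and 36.5 CPM in DMSO and at 31.2, 31.3 and 30.4 CPM in compound E. Its groups did not overlap, and it fell 1.17-fold (edgeR adjusted p = 8.85e-04; 0.0628 to 0.142 in limma on FPKM, where the call was lost). The genes of the complex's E1 subunits were not called, with PDHA1 at 76.7 ± 1.32 and 73.1 ± 0.634 CPM and PDHB at 79.0 ± 1.09 and 77.8 ± 1.44 CPM. Of PDHA1's exonic bases 21.3% lie in exons of MAP3K15 on the opposite strand, which had 68 counts over all libraries.

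The pentose phosphate pathway held the steepest fall relative to its error. TKT encodes transketolase, the enzyme that moves carbon units between sugar phosphates of the non-oxidative branch. It was at 371, 371 and 373 CPM in DMSO and at 266, 275 and 269.5 CPM in compound E, so the gap between the groups was far wider than the spread within either. TKT fell 1.38-fold (log2 fold change -0.46 ± 0.0269, edgeR adjusted p = 2.16e-17). TALDO1, the transaldolase of the same branch, went the other way, at 113, 110 and 112 CPM in DMSO and 124, 127 and 122 CPM in compound E. It rose 1.11-fold with no overlap (edgeR adjusted p = 3.04e-04). In DMSO these genes were close in FPKM, at 38.7 ± 0.112 for TKT and 36.9 ± 0.517 for TALDO1, and in compound E they were at 28.3 ± 0.495 and 41.3 ± 0.854.

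The enzymes that make ribose-5-phosphate and xylulose-5-phosphate for that exchange were not called. RPIA, the isomerase, was at 93.6 ± 0.749 and 96.0 ± 0.705 CPM, and RPE, the epimerase, at 38.8 ± 0.594 and 38.3 ± 2.77 CPM. Of RPE's exonic bases 23.8% lie in exons of KANSL1L on the opposite strand, which had 4116 counts over all libraries, against 4305 for RPE. With strand use not given, the level of RPE is uncertain. Both listed enzymes of the oxidative branch fell. PGLS, the lactonase, was at 39.3, 40.4 and 40.5 CPM in DMSO and at 33.9, 31.1 and 37.5 CPM in compound E, 1.17-fold lower (edgeR adjusted p = 0.00151; 0.10 in limma on unfiltered FPKM). PGD, the phosphogluconate dehydrogenase, was at 203, 198 and 196 CPM in DMSO and at 184, 183 and 177 CPM in compound E, 1.09-fold lower (edgeR adjusted p = 6.70e-04). The groups of both genes were apart, though the PGLS libraries of compound E spread more widely than those of DMSO. Exons of AC010618.3 on the opposite strand hold 9.17% of PGLS's exonic bases, and AC010618.3 had 637 counts over all libraries, against 4146 for PGLS.

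Over the list, the groups did not overlap in 21 of 33 members (63.6%), against 46.8% of all tested genes, with no matching for abundance. All 16 called members were among them, and the other 5 were HK1, PFKP, GAPDH, PDHA1 and RPIA. The 17 members that were not called had log2 fold changes between -0.15 and 0.10.

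The members lie on 12 chromosomes, and 6 are on chromosome 12. On GRCh38, the build of GENCODE 29, GAPDH (ENSG00000111640) spans 6533927 to 6538374, TPI1 (ENSG00000111669) 6867119 to 6870948, and ENO2 (ENSG00000111674) 6913745 to 6923698, all on the plus strand. SLC2A3 (ENSG00000059804) follows at 7919230 to 7936275 on the minus strand. ENO2, which rose, begins 42797 bases after the end of TPI1, which was not called, and SLC2A3, which fell, begins 995532 bases after ENO2. GAPDH and TPI1 were both not called, while ENO2 and SLC2A3 were called in opposite directions. The genes between these members were not examined. PFKM (ENSG00000152556) lies farther along, at 48105139 to 48146404 on the plus strand. Elsewhere, ALDOC (ENSG00000109107) is on chromosome 17 at 28573115 to 28577264 and TKT (ENSG00000163931) on chromosome 3 at 53224707 to 53256052, both transcribed from the minus strand.

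Many glycolytic genes have processed pseudogenes, and reads can match both copies. The tables hold 62 rows named as GAPDH pseudogenes, with 1184 counts in all libraries together, against 255895 for GAPDH (0.463%). Pseudogenes of TPI1 held counts equal to 2.96% of those of TPI1, and those of SLC2A3 2.90%. For every other member this share was under 1%. Reads that match several places may have been left out by the counting, so a share lost to copies was not tested.

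Other genes of these pathways were split in direction. Of 60 further genes of glucose metabolism 42 could be tested, of which 9 rose and 9 fell, 42.9% against 38.3% of all tested genes, with a median log2 fold change of 0.03. SLC2A6, a sugar transporter of lysosomes, rose from 17.1 ± 1.80 to 30.5 ± 0.611 CPM, and BPGM, which makes 2,3-bisphosphoglycerate, from 26.0 ± 1.01 to 35.4 ± 1.76 CPM. Also higher were PC, the pyruvate carboxylase (log2 fold change 0.30), the pyruvate dehydrogenase phosphatase PDP1 (0.29) and MPC2, a subunit of the mitochondrial pyruvate carrier (0.29). H6PD, which starts a pentose phosphate route in the endoplasmic reticulum, fell from 92.3 ± 0.764 to 71.2 ± 1.64 CPM, in the same direction as PGLS and PGD. GPD1L, related to glycerol-3-phosphate dehydrogenase (-0.63), the phosphatase PDP2 (-0.33), PRPS2, which draws on ribose-5-phosphate for nucleotide synthesis (-0.24), and the phosphoglucomutase PGM1 (-0.30) fell as well. Among 21 tested genes of the tricarboxylic acid cycle and malic enzymes 3 rose and 6 fell, 42.9% against 38.3% of all tested genes, with FH, the fumarase, at 0.41 and SUCLG2, a succinyl-CoA ligase subunit, at -0.56.

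Of 18 tested regulators of glucose metabolism 7 rose and 7 fell, 77.8% against 38.3% of all tested genes, with a median log2 fold change of 0.09. Fewer of those that rose than of those that fell are named here. MYC, a transcription factor known to drive glycolytic genes, fell from 393 ± 9.12 to 219 ± 5.67 CPM (log2 fold change -0.84, edgeR adjusted p = 5.15e-25). Its partner MAX (-0.31), its paralogue MYCN (-1.29), NFE2L2, a factor of the antioxidant response (-0.42), and MXI1 (-0.45) fell too. TXNIP, which holds back glucose uptake, rose from 53.9 ± 1.95 to 102 ± 1.92 CPM (0.92), and MLXIP, a glucose-sensing factor known to act on TXNIP, rose by 0.32. HIF1A, the hypoxia-inducible factor that also drives glycolytic genes, was not called (log2 fold change 0.08, edgeR adjusted p = 0.0826).

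Targets of hypoxia outside glycolysis gave no common direction. Of 17 tested, 5 rose and 3 fell, 47.1% against 38.3% of all tested genes, with a median of -0.05. VEGFA, the vascular growth factor, fell from 19.7 ± 0.627 to 2.11 ± 0.426 CPM, while EGLN3, a prolyl hydroxylase, rose from 3.91 ± 0.391 to 11.0 ± 1.03 CPM.

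Because MYC and MAX fell, promoter windows were searched for the E-box CACGTG, which these factors are known to bind and which reads the same on both strands. RefSeq windows on GRCh38.p14, from 250 bases before to 50 after a start, were at hand for 30 of the 33 members, 56 windows in all. An E-box was found in 7 of 30 members (23.3%), against 8.77% of 27305 genes, and in 12.5% of the members' windows, against 7.26% of 35116 windows. The 27305 genes were not filtered on expression, as the members were, so these shares do not compare like with like. Of the 7 members, ALDOC rose, HK2 fell, and ALDOA, GAPDH, LDHA, PDHB and PFKFB3 were not called. The matches with at least 12 bases on either side are shown on the strand of the gene, 5′ to 3′, with the E-box in capitals.
HK2 at chr2:74834964-74834993, plus strand: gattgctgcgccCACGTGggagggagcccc
HK2 at chr2:74835009-74835038, plus strand: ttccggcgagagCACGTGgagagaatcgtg
LDHA at chr11:18394366-18394395, plus strand: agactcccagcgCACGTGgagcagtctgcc
LDHA at chr11:18394464-18394493, plus strand: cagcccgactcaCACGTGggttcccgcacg
GAPDH at chr12:6535171-6535200, plus strand: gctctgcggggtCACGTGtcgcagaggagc
ALDOA at chr16:30064373-30064402, plus strand: tggcagggaggcCACGTGatccgagtcccc
PDHB at chr3:58434051-58434080, minus strand: acaccgaccaggCACGTGtgcccagcgtgc
PFKFB3 at chr10:6202812-6202841, plus strand: caccctcctcccCACGTGgaagggggctgg
HK2 and LDHA each held a pair of E-boxes within 1 window, and only HK2 of the 2 was called. Of the 9 members that fell and had a window, HK2 was the only one with an E-box. Whether MYC or MAX acts on any member was not tested.

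The shorter core ACGTG of hypoxia-response elements, which lies within every E-box and was searched on both strands, was found in 16 of 30 members (53.3%), against 24.9% of 27305 genes, and in 35.7% of the members' windows, against 21.4% of all windows. It was present in 3 of 5 members that rose, 5 of 9 that fell and 8 of 16 that were not called. TGGGAA, the core that the NOTCH partner RBPJ recognises, was found on either strand in 6 of 30 members (20%), against 28.1% of all genes, and all 6 were among those not called. A composite element of ATF4, searched on both strands as TGATGNAA, was found in 1 of 30 members, HK1, against 4.46% of all genes. A match shows these letters and not a bound site, and whether any of these factors acts on a member was not tested. The 30 members had 56 windows where 27305 genes had 35116, so a member had more chances of a match. The 27305 genes were also not filtered on expression, while all members passed the filter on low counts.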

How the data were processed

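Poly(A) RNA from 6 MOLT-3 libraries was prepared with NEBNext Ultra reagents, per the labels' protocols. The submitters' processing notes name HISAT2 2.0.5, featureCounts 1.5.0-p3 and DESeq2 1.16.1 with no role. The sources used here do not give the build, strand use or treatment of shared reads. The deposited count table holds raw counts per gene, and the deposited FPKM table holds counts divided by gene length and 1 scaled depth per library, as the tables themselves show.

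Counts were tested in R 4.3.3 with edgeR 4.0.16 (filterByExpr, TMM, quasi-likelihood F-test, treatment alone), and p-values were adjusted over all tested genes. Standard errors came from the log2 fold change and the F statistic. The fit was tested on simulated data. The members and lists were chosen with earlier results of these data known. Members called with a log2 fold change of at least 0.2 in size and the isozyme of highest FPKM in each family are given by library, and of each other list up to 5 called genes a direction with the smallest p were eligible for naming; HIF1A, named outside this rule, was chosen after its value was seen. Isozyme shares have no test, since an exact permutation test of 3 against 3 cannot go below p = 0.10. Alternatives were other scalings and filters, DESeq2 1.42.0, limma-voom and limma on log2 FPKM (limma 3.58.1), the replicate block and each library left out.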

Additional observations from a re-analysis of the deposited data

How the results depend on the processing

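The 17 alternative settings changed no direction of a called member. Of the 16 called members 11 kept their call in every setting and 5 lost it in at least 1. ENO1 lost it in 9 settings, PGK1 in 7, PFKFB2 in 6, PDK1 in 3 and PGLS in 1. HK1, PFKFB3 and GAPDH, not called as reported, gained a call in at least 1. The members called lower numbered 7 to 12 and those called higher 4 or 5. With limma on log2(FPKM + 1) without a filter 7 members were called lower, and 4002 of 33506 tested genes were called. As reported these were 11 members and 6484 of 16926 tested genes. With each library left out in turn, members called lower ranged from 9 to 11 and members called higher from 4 to 5. All genes called then ranged from 5671 to 6068, with 17310 to 17438 tested. The replicate numbers share only a number: deviations of same-numbered libraries correlated at -0.021 to 0.010. With the replicate block 10 members were called lower and 4 higher, and 6138 of 16926 tested genes in all. PGK1 (edgeR adjusted p = 0.0522) and ENO1 (0.0587) lost their calls there. A restriction to the 31 members with under 25% of exonic bases shared, chosen after the data were seen, left 11 lower and 5 higher. From counts in place of FPKM the share of ENO1 changed by -2.98 percentage points in place of -3.45, and that of LDHA by 0.631 in place of 1.13. Scaling moved the median of all genes by less than 0.02. Low counts limit PFKFB4, ALDOA and SLC16A3, whose standard errors were 0.096 to 0.167.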
